A study of Homo sapiens with 21 samples.

Results

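Chromatin accessibility after silencing of ARID1A was set directly against accessibility after silencing of ARID1B. Of the 21 ATAC-seq libraries of the series, 12 entered the contrast: 6 with an shRNA against ARID1A (shARID1A.2 and shARID1A.4, 3 libraries each) and 6 with an shRNA against ARID1B (shARID1B.2 and shARID1B.3, 3 libraries each). They were chosen by their labels alone. All were SK-N-BE(2) cells, an established human neuroblastoma line, collected 72 h after lentiviral transduction. In ATAC-seq the Tn5 transposase cuts open DNA, so that read counts over a site rise with its accessibility. The 3 Control libraries had no part in the contrast and are given only as a reference level. The comparison rests on a single cell line, and how strongly each shRNA lowered its target was not analysed here, so that the gene silenced and the strength of silencing cannot be told apart.

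ARID1A and ARID1B are alternative subunits of the BAF complex, a chromatin remodeller of the mSWI/SNF family that uses ATP to move nucleosomes and keeps distal enhancers open. A BAF complex holds either ARID1A or ARID1B, so cells that lose either keep complexes built on its paralogue. Adrenergic neuroblastoma cells use enhancers bound by PHOX2, GATA and HAND factors, the regulators of sympathetic neuron identity.

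Accessibility was lower after ARID1A silencing than after ARID1B silencing at 13163 of 357029 tested sites (3.69%) and higher at 3745 (1.05%), 4.74% in all, by edgeR's quasi-likelihood test at a false discovery rate (FDR) under 0.01. The median log2 difference (ARID1A minus ARID1B) was -0.65 at the lower sites, 0.52 at the higher sites and 0.01 over all tested sites. These calls treat the 3 libraries of an shRNA as replicates. With libraries summed so that each shRNA counted once, 2 against 2, edgeR called 0 sites. In that fit 17549 of 367814 sites had an unadjusted p under 0.05. That share lay itself below the 0.05 awaited with no difference at any site. The counts thus describe these 4 shRNAs, and the data did not show at this threshold a difference that would hold over shRNAs in general. The coefficient of variation was 0.164 between the shRNAs of a gene and 0.0817 within groups.

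Each shRNA of one gene was therefore set against each of the other. With shARID1A.2 minus shARID1B.2, 5.06% of sites were called, 4.09% lower and 0.974% higher. With shARID1A.2 minus shARID1B.3, 5.28% were called, 3.64% lower and 1.64% higher. With shARID1A.4 minus shARID1B.2, 4.44% were called, 3.02% lower and 1.43% higher. With shARID1A.4 minus shARID1B.3, 4.21% were called, 2.4% lower and 1.81% higher. Lower sites outnumbered higher sites in all 4 pairs. The shRNAs of a gene also differed from each other: shARID1A.2 and shARID1A.4 at 2.57% of sites, and shARID1B.2 and shARID1B.3 at 7.21%, more sites than in the contrast of the genes.

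**Figure D1:**
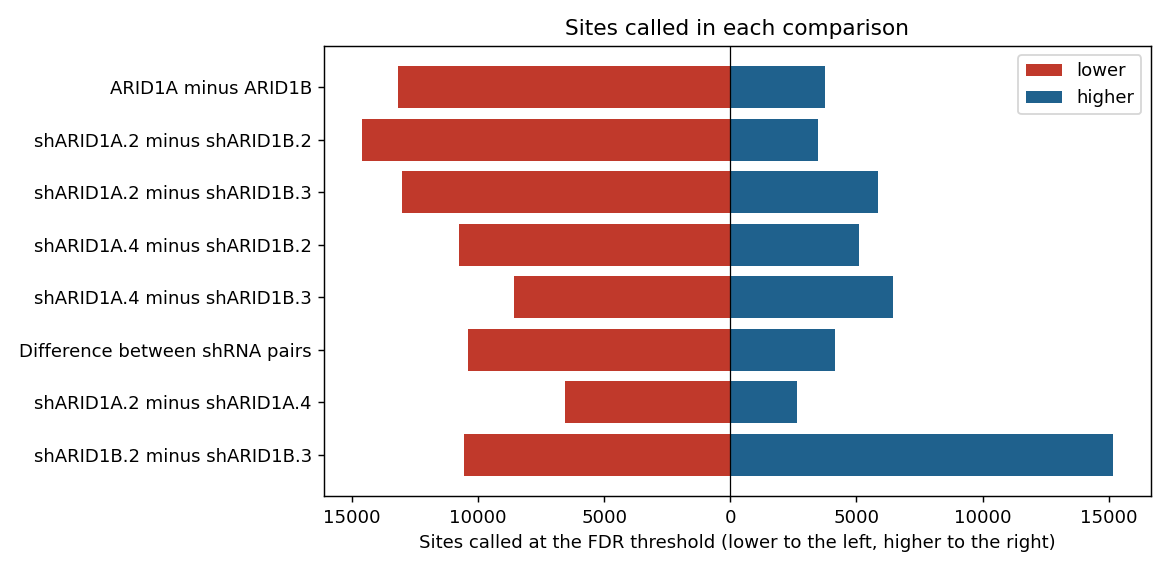
Number of sites called at an FDR under 0.01 in each comparison, lower to the left and higher to the right of 0 (edgeR, 357029 tested sites). The longest pair of bars is that of the ARID1B shRNAs against each other, with 10572 lower and 15173 higher sites.

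A pair of comparisons that shares no library shows how far the shRNAs moved the same sites. Of the 14607 sites lower with shARID1A.2 minus shARID1B.2, 2374 were also lower with shARID1A.4 minus shARID1B.3, which is 16.2% of the first list and 27.7% of the second, and 1548 were higher. Of the 13008 sites lower with shARID1A.2 minus shARID1B.3, 1979 were lower with shARID1A.4 minus shARID1B.2 (15.2% and 18.4% of the lists) and 634 were higher. Among sites higher in the first of each pair, 354 and 300 were higher in the second. In the latter case 1203 were lower instead. Across all 357029 sites the log2 differences had a Pearson correlation of 0.015 in the first case and -0.030 in the second, and of 0.10 and 0.017 over the 35061 sites with a mean of at least 5 CPM (the reads of a site scaled by its library's size after TMM). Sites are not independent replicates, and each value carries counting error.

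**Figure D2:**
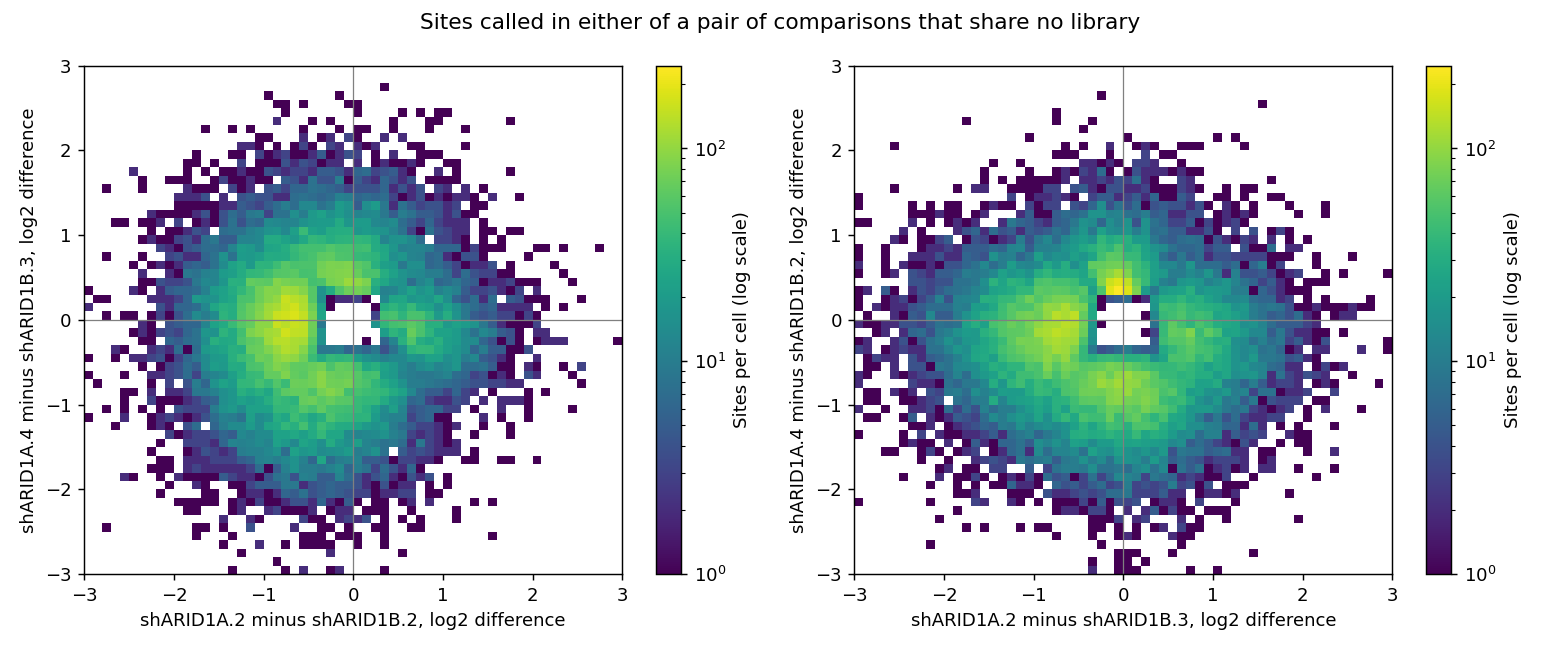
Log2 differences of 2 comparisons that share no library, on the x and y axes, for sites called in either (28626 sites on the left, 30613 on the right), with colour giving the number of sites per cell on a log scale and values beyond 3 drawn at the edge. Sites spread into all 4 quadrants; the empty centre is where no site could be called.

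In all 4 pairs at once, 1254 sites were lower (0.351% of tested sites) and 133 were higher (0.0373%). Among the 13163 lower sites, 79.4% had a negative difference in every pair, and among the 3745 higher sites 71.6% had a positive one. The contrast of the genes averages these same 4 pairs, so the choice of called sites favours a shared sign. These shares therefore do not measure agreement between shRNAs. The commonest pattern was a call in 2 pairs, at 7438 lower sites. Of these, 2751 were called in both pairs with shARID1B.2, 2564 in both with shARID1B.3, 1667 in both with shARID1A.2 and 456 in both with shARID1A.4. All 6 ARID1A libraries lay below all 6 ARID1B libraries at 1.52% of tested sites and above them at 0.454%. That held for 4645 of the lower sites and 890 of the higher ones.

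At sites lower in all 4 pairs, the median log2 difference was -0.99, and the median log2 ratio to Control stood at -0.79 for shARID1A.2 and -0.73 for shARID1A.4, while shARID1B.2 stood at 0.22 and shARID1B.3 at 0.23. The Control mean lay between the gene means at 876 of the 1254 sites, above both at 348 and below both at 30. Over all tested sites it lay between them at 25.8%, above both at 36.6% and below both at 37.6%. The 1254 sites were chosen for a gap between the genes in every pair, which by itself favours a Control mean inside that gap. This split therefore cannot tell which gene's silencing moved the sites. At the 133 sites higher in all 4 pairs, the ratios to Control were 0.34, 0.31, -0.48 and -0.52 in the same order. The ratios of both sets share the Control libraries and come from sites chosen for the gap between the genes. They are given as levels, with no test.

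The sequences of 5 sites are shown as examples: 3 falls with the letters of the PHOX2 motif, the motif that departed most from the background below, 1 other large fall and the largest rise. The sequence at the largest fall is not shown here. They are the central 300 bases of each site, plus strand, GRCh38, in lower case. Capitals mark, on either strand, the PHOX2 letters TAATNNNATTA. They also mark the GATA-factor letters AGATAA. The E-box letters CAGCTG, read by HAND and other bHLH factors, are in capitals too. The AP-1 letters TGANTCA were searched in the same way and occur in none of the 5. The first 4 were lower after ARID1A than after ARID1B silencing, and the last, which also holds the PHOX2 letters, was higher. The first 3, near IRX5, in RBFOX1 and near C9orf153, were chosen after their values were seen.
IRX5 side, chr16:54968881-54969180: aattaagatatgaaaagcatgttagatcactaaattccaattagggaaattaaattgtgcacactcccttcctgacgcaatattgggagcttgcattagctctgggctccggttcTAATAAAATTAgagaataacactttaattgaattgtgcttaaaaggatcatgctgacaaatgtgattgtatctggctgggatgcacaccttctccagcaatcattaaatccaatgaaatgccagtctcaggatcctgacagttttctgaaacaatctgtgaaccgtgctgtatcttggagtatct
RBFOX1 intron, chr16:6625787-6626086: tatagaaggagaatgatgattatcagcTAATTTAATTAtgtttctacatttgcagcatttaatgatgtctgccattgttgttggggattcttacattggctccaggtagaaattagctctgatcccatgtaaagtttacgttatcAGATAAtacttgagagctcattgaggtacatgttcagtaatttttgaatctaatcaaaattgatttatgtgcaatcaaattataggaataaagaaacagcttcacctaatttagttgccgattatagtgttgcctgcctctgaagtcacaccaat
C9orf153 side, chr9:86207238-86207537: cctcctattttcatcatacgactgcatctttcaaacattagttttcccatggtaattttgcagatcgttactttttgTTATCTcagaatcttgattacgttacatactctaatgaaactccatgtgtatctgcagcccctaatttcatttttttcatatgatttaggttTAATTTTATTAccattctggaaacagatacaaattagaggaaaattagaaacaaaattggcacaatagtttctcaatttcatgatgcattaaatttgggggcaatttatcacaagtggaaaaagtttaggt
TYW1 intron, chr7:67036844-67037143: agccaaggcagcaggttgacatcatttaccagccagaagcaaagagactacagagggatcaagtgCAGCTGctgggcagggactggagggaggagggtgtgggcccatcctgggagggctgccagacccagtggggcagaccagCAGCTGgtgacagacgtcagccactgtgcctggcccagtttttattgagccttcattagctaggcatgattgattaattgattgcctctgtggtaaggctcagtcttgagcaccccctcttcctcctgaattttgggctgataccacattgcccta
LINC00410 intron, chr13:90910241-90910540: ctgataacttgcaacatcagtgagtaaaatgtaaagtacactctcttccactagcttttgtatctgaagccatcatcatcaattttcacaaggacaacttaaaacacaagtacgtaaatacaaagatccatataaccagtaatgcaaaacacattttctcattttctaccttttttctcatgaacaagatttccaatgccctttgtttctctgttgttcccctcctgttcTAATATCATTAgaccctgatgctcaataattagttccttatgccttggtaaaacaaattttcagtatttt

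The largest fall was in intron 4 of SOGA3, nearest to LOC101928121. It measured 1.81, 2.03 and 1.84 CPM with shARID1A.2 and 3.57, 2.5 and 2.13 with shARID1A.4, against 14.1, 11 and 12.1 with shARID1B.2 and 14.3, 15.5 and 14.6 with shARID1B.3. Control libraries had 10, 11.8 and 9.58 CPM. All ARID1A libraries lay below every ARID1B and Control library, and the log2 difference was -2.56 (SE 0.10, FDR 2.03e-35), between -2.16 and -2.96 in the 4 pairs.

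The site at chr7:67036616-67037371 lies in intron 7 of TYW1, which encodes an enzyme of tRNA wybutosine synthesis. It measured 0.498, 0.934 and 0.584 CPM with shARID1A.2 and 0.87, 0.786 and 0.626 with shARID1A.4, against 3.36, 4.57 and 3.96 with shARID1B.2 and 3.18, 2.8 and 2.65 with shARID1B.3 (log2 -2.21, SE 0.16, FDR 3.06e-20). Groups did not overlap. In intron 2 of NRXN3, a presynaptic adhesion molecule, the site at chr14:79475899-79476823 had 0.975 to 1.76 CPM in ARID1A libraries and 5.15 to 6.16 in ARID1B libraries (log2 -2.14, SE 0.13, FDR 1.08e-23). Control libraries had 1.97, 2.47 and 1.08 CPM there, nearer to the ARID1A libraries.

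In intron 1 of AMOTL1, an angiomotin-family partner of YAP, the site at chr11:94727661-94728330 had 1.19 to 3.21 CPM in ARID1A libraries and 7.87 to 13.5 in ARID1B libraries (log2 -2.01, SE 0.11, FDR 2.01e-27). In intron 12 of ENOX1, a cell surface oxidase, the site at chr13:43238097-43240114 had 0.934 to 2.25 against 6.01 to 7.78 CPM (log2 -1.93, SE 0.12, FDR 2.75e-24). Both lay apart in every library and were called in all 4 pairs. The remaining large falls were near CCDC182 (log2 -2.10, SE 0.21), MIR7-3 (-1.99, SE 0.12) and LOC102724373 (-1.95, SE 0.17). At MIR7-3, which encodes the neuroendocrine microRNA miR-7, shARID1B.2 gave 3.79 to 4.29 CPM and shARID1B.3 gave 10.5 to 11.7, so the ARID1B shRNAs differed (FDR 3.31e-15).

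Rises were smaller and less even between shRNAs. The largest was at chr13:90909977-90910803, in intron 2 of the non-coding gene LINC00410. It measured 4.26, 4.14 and 3.19 CPM with shARID1A.2 and 4.03, 3.47 and 4.26 with shARID1A.4, against 1.61, 1.75 and 1.52 with shARID1B.2 and 0.809, 0.746 and 0.882 with shARID1B.3 (log2 1.76, SE 0.14, FDR 1.39e-18). Control libraries had 6.54, 8.14 and 6.33 CPM, above all 12. The other rises were near RP11-614F17.2, CCDC102B, SAMSN1-AS1, LRRC27, BBOX1, GPR22 and an intergenic position on chromosome 20, with log2 differences from 1.49 to 1.72. Of these 8 rises, 5 were called in all 4 pairs, against all 8 of the falls. Near BBOX1, an enzyme of carnitine synthesis, the difference was 0.38 with shARID1A.2 minus shARID1B.2 and 2.75 with shARID1A.4 minus shARID1B.3.

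**Figure D3:**
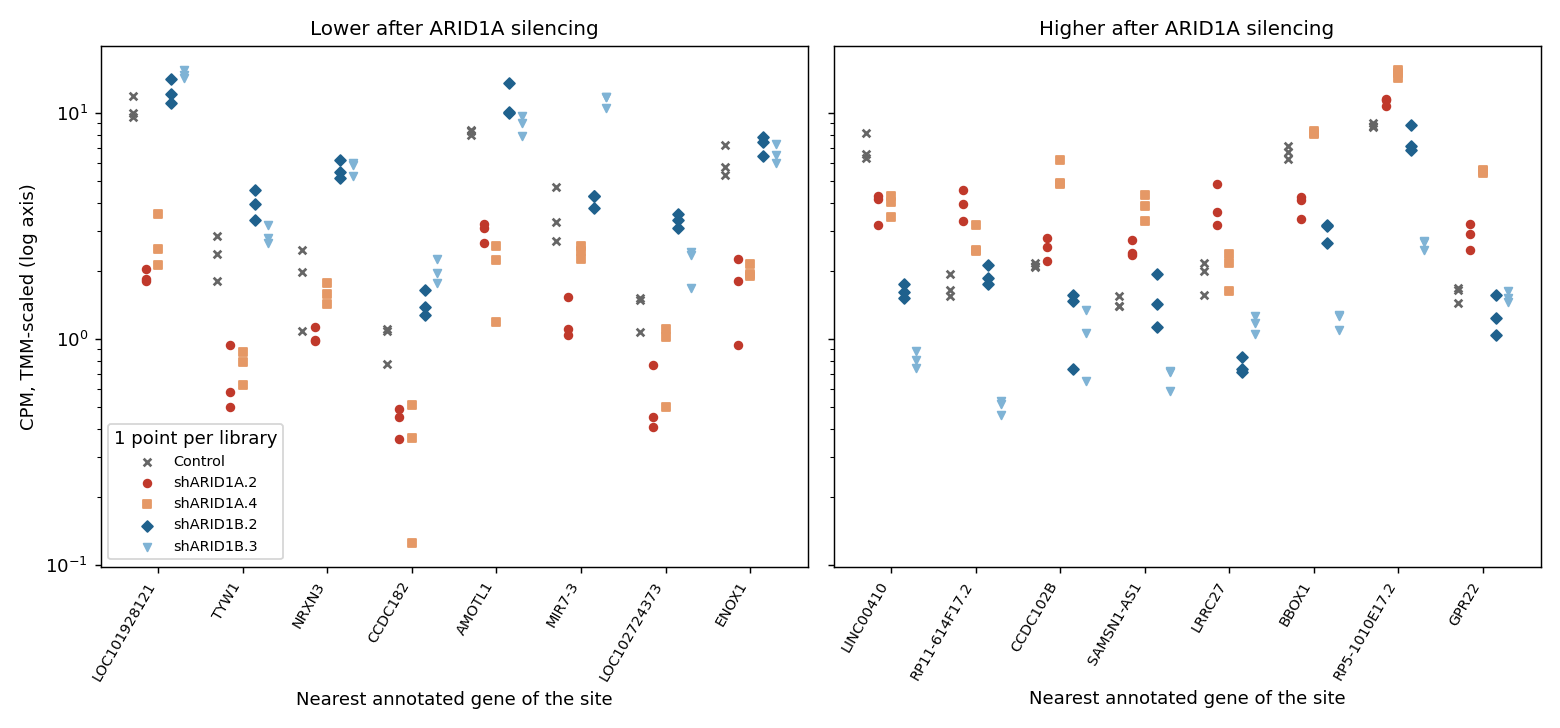
CPM of each library on a log axis at the 8 sites with the largest falls (left) and the 8 with the largest rises (right), 1 point per library, named by the nearest annotated gene. ARID1A and ARID1B libraries do not overlap at any of the 16 sites, which the choice of sites required.

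Higher sites were more often promoters than lower sites were. Of the lower sites, 51.5% were intronic, 42.2% intergenic and 2.20% promoters, with a median distance to the start site of 45.1 kb. Of the higher sites, 41.2% were intronic, 42.5% intergenic and 9.21% promoters, at a median of 41.7 kb. Over all tested sites the shares were 43.1%, 48.7% and 3.45%, and the median distance was 50.7 kb. Among 12310 promoter sites, 2.35% were lower and 2.80% higher. The promoter rises depended on the pair: 7.34% of promoters were higher with shARID1A.4 minus shARID1B.2, 3.10% with shARID1A.4 minus shARID1B.3, 2.28% with shARID1A.2 minus shARID1B.2 and 1.07% with shARID1A.2 minus shARID1B.3. Of promoters, 45 were lower in all 4 pairs (0.366%, against 0.351% of all sites) and 8 higher (0.065%, against 0.0373%). Reads in promoter sites made up 23.1% ± 0.92 of reads in ARID1A libraries and 22.0% ± 0.97 in ARID1B libraries (SD, n = 6 each, two-sided exact permutation p = 0.078), and the part of this share in the promoter calls was not tested. The permutation treats the 12 libraries as independent, whereas shARID1B.2 had 20.9% to 21.5% and shARID1B.3 had 21.8% to 23.4%, so its p does not measure a difference between genes over shRNAs.

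Sites with the PHOX2 letters departed most from the background in the lower direction. PHOX2 factors are homeodomain proteins that specify noradrenergic neurons. Of 3887 tested sites with these letters in the central 300 bases (1.09% of all), 14.7% were lower and 1.39% higher, with a median log2 difference of -0.13. The share of them that was lower was 11.3% with shARID1A.2 minus shARID1B.2, 18.7% with shARID1A.2 minus shARID1B.3, 5.66% with shARID1A.4 minus shARID1B.2 and 11.5% with shARID1A.4 minus shARID1B.3. Each lay above the share of all sites lower in that pair, given earlier. In all 4 pairs, 49 of these sites were lower and 1 was higher. The letters stood in 7.33% of lower sites under 1 CPM against 0.892% of uncalled sites of that level, and in 3.68% against 0.551% over 10 CPM. The shRNAs of a gene differed here too. Of PHOX2 sites, 7.38% were lower with shARID1A.2 than with shARID1A.4 and 1.11% higher, against 1.84% and 0.737% of all sites. With shARID1B.2 minus shARID1B.3, 10.4% were lower and 6.48% higher, against 2.96% and 4.25% of all sites.

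The single sites below were picked after their values were seen. Their differences were far larger than the median of -0.13 over all sites with these letters. At chr16:54968604-54969457, 37831 bases from the start of the developmental regulator IRX5, ARID1A libraries had 0.501 to 0.589 CPM and ARID1B libraries 1.24 to 3.21 (log2 -1.93, SE 0.19, FDR 1.93e-13). Control libraries had 0.818, 0.329 and 0.601 CPM there, at the level of the ARID1A libraries and below all ARID1B libraries. In intron 1 of RBFOX1, a neuronal splicing regulator, the site at chr16:6625383-6626490 had 0.679 to 1.89 CPM against 3.26 to 3.86 (log2 -1.63, SE 0.14, FDR 2.14e-16). At chr9:86206623-86208152 near C9orf153, the values were 1.54 to 3.47 against 5.61 to 9.18 CPM (log2 -1.63, SE 0.11, FDR 9.23e-22). The groups did not overlap at any of these 3 sites. Control libraries had 2.12 to 3 CPM at the RBFOX1 site and 5.26 to 6.98 CPM at the C9orf153 site.

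The other motifs differed in how far they held over shRNAs. Sites with the GATA letters were lower in 5.80% of cases, and in 6.77%, 5.49%, 4.82% and 3.54% in the 4 pairs in the order above, each above its background. They also exceeded the background among higher sites, at 1.35% in the contrast of the genes, and at 2.63% and 2.85% in the pairs of shARID1A.2 and shARID1A.4 with shARID1B.3. From 3 to 10 CPM the GATA letters stood in 25.8% of higher, 24.8% of lower and 16.1% of uncalled sites. Sites with the AP-1 letters, bound by FOS and JUN factors, were lower in 5.22%. In their case the share was 7.64% and 6.05% in the pairs with shARID1B.2, and 3.74% and 2.38% in those with shARID1B.3, close to the background of those pairs. AP-1 sites were higher with shARID1B.2 than with shARID1B.3 in 9.63% of cases, against 4.25% of all sites. The SP/KLF letters GGGCGG, common in promoters, stood in 21.1% of higher sites, 5.10% of lower sites and 9.06% of all sites. Over 10 CPM they stood in 44.2% of higher sites and 55.7% of uncalled sites, so their excess was not seen at sites of high level. Of sites with the SP/KLF letters, 1.84%, 1.16%, 5.3% and 2.75% were higher in the 4 pairs in the order above. The shares of all sites were 0.974%, 1.64%, 1.43% and 1.81%. With shARID1A.2 minus shARID1A.4, 2.57% of SP/KLF sites were lower and 0.331% higher, against 1.84% and 0.737% of all sites. A match of letters is a description of the sequence and not of binding.

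**Figure D4:**
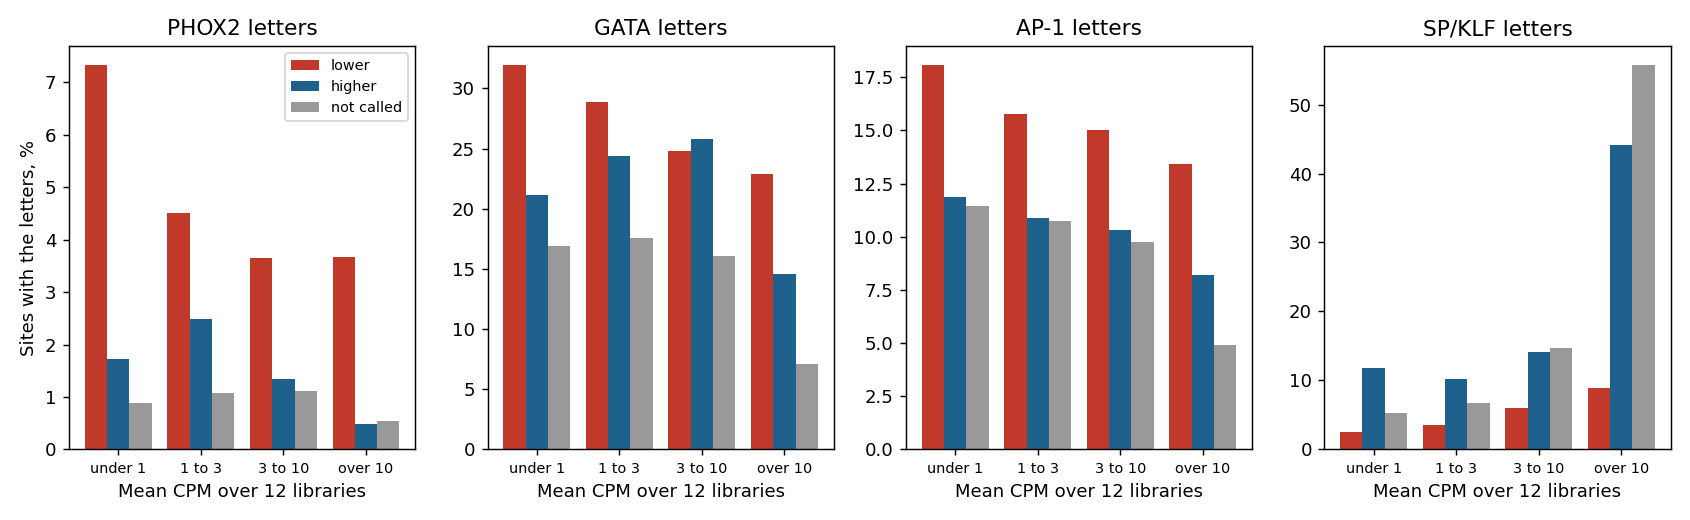
Percent of sites whose central 300 bases hold each motif's letters, for lower, higher and uncalled sites, by mean CPM over the 12 libraries (each panel has its own y axis, starting at 0). PHOX2, GATA and AP-1 letters were more frequent in lower than in uncalled sites at every level.

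In the contrast of the genes, the adrenergic program had a higher share of lower sites than the background. Its lists differed in how evenly this held over shRNAs. Lower sites had a median of 3.29 CPM and all tested sites one of 1.02. The shares of this and the other gene lists were not matched for the level of the sites. Of 212 sites nearest to catecholamine synthesis and storage genes, 18 were lower (8.49%) and 2 higher (0.943%), with a median log2 difference of -0.06. In the 4 pairs in the order above, 25, 16, 17 and 16 of the 212 were lower and 4, 8, 2 and 5 higher. The shares of all sites in these pairs are given earlier. DBH, which makes noradrenaline from dopamine, had 3 of 5 sites lower. Its promoter site at chr9:133634132-133636651 had 7.83, 6.78 and 8.67 CPM with shARID1A.2, 8.51, 7.72 and 7.39 with shARID1A.4, 11.2, 14.6 and 11.9 with shARID1B.2 and 11.5, 11.7 and 9.41 with shARID1B.3. It lay lower in every ARID1A library and in all 4 pairs (log2 -0.58, SE 0.09, FDR 2.09e-07). A site 133302 bases from SCG2, a granule protein, had a log2 difference of -1.22 (SE 0.10, FDR 2.33e-16), and an intronic site of the vesicular monoamine transporter gene SLC18A1 one of -1.08 (SE 0.09, FDR 7.13e-17). The SLC18A1 site was not called with shARID1A.4 minus shARID1B.2 (-0.37, FDR 0.0562). It had 3.05 to 3.95 CPM with shARID1A.2, 5.7 to 7.12 with shARID1A.4 and 7.06 to 7.56 in Control libraries. The ARID1A shRNAs differed there (FDR 6.82e-07).

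Of 492 sites near adrenergic transcription factors, 32 were lower (6.50%) and 5 higher (1.02%), near 11 and 4 of the 18 genes. In intron 3 of TFAP2B, a neural crest factor, the site at chr6:50834454-50836530 had 5.12 to 7.76 CPM in ARID1A libraries and 11 to 14 in ARID1B libraries (log2 -0.95, SE 0.08, FDR 8.73e-16). Near EYA1 the difference of -0.61 (SE 0.07, FDR 5.96e-11) was uneven, at 0.25 with shARID1A.2 minus shARID1B.3 and -1.47 with shARID1A.4 minus shARID1B.2. Without shARID1A.4 it was -0.24 (FDR 0.0661) and without shARID1B.2 it was -0.12 (FDR 0.507), and neither passed the test. The list as a whole was uneven too. With shARID1A.2 it had 44 lower and 2 higher sites against shARID1B.2, and 46 and 11 against shARID1B.3. With shARID1A.4 it had 18 lower and 12 higher against shARID1B.2, and 17 and 19 against shARID1B.3, so that higher sites outnumbered lower ones in the last pair. The promoter site of HAND2 had a log2 difference of -0.25 (SE 0.06, FDR 0.00139), called in both pairs with shARID1B.3 and not in the others. The HAND2 call ended without shARID1B.3 (-0.10, FDR 0.464), without shARID1A.2 (-0.23, FDR 0.0355) and without shARID1B.3 replicate 2 (-0.22, FDR 0.0116). The promoters of PHOX2A (-0.07, SE 0.07, FDR 0.644) and TH (-0.16, SE 0.12, FDR 0.561) did not pass the test. These promoter sites, that of DBH included, were singled out after their values were seen.

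Mesenchymal transcription factors were near 10 lower (2.62%) and 3 higher (0.787%) of 381 sites. A site at chr7:18843947-18844422, in an intron of HDAC9 and nearest to the mesenchymal regulator TWIST1, was higher (log2 1.06, SE 0.11, FDR 2.33e-13), and one near RUNX1 was lower (-0.997, SE 0.118, FDR 1.37e-10). The site near TWIST1 was called in 3 of the 4 pairs. It had mean CPM of 5.50 in ARID1A, 2.77 in ARID1B and 6.96 in Control libraries. AP-1 factor genes had 3 lower sites of 58 (5.17%). Sites near FOS (-0.65, SE 0.12, FDR 1.48e-05) and FOSB (-0.66, SE 0.15, FDR 7.39e-04) were lower, and their groups overlapped. Without shARID1B.2 neither passed the test (-0.36, FDR 0.0967 for FOS and -0.21, FDR 0.6 for FOSB). FOSB also failed it without shARID1A.2 (-0.31, FDR 0.39) and without shARID1A.2 replicate 3 (-0.56, FDR 0.0103). The site near FOS had mean CPM of 2.88 in ARID1A, 4.57 in ARID1B and 2.32 in Control libraries.

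Adhesion and matrix genes were mixed. Integrins, the receptors that bind cells to matrix, had 18 lower (6.79%) and 2 higher (0.755%) of 265 sites. Upstream of ITGA6, a laminin receptor subunit, the site at chr2:172372404-172373529 had a log2 difference of -1.23 (SE 0.12, FDR 4.73e-13), and an intronic site of ITGB5 one of -0.90 (SE 0.11, FDR 4.16e-10). Each was called in 3 of the 4 pairs. The ITGA6 difference was -0.25 (FDR 0.435) with shARID1A.2 minus shARID1B.3 and -2.20 with shARID1A.4 minus shARID1B.2. Cadherins, which join cells, had 27 lower (3.08%) and 9 higher (1.03%) of 877 sites. An intronic site of CDH18 at chr5:19918662-19919503 had 1.8 to 2.44 CPM against 4.62 to 5.59 and nearly equal differences in all pairs, from -1.21 to -1.41 (log2 -1.31, SE 0.11, FDR 2.33e-16). A site near CDH11 had -0.81 (SE 0.08, FDR 1.84e-13). Matrix and lysyl oxidase genes had 13 lower (2.09%) and 6 higher (0.963%) of 623 sites, with FBN1 at -0.98 (SE 0.08, FDR 2.89e-17) and COL1A2 at -0.79 (SE 0.11, FDR 1.00e-07). The COL1A2 site was called in 2 of the 4 pairs, and without shARID1B.3 its difference was -0.40 (FDR 0.079).

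Neuronal signalling genes lay near the background. Axon guidance genes had 82 lower (3.95%) and 21 higher (1.01%) of 2076 sites, among them a site of the SLIT receptor gene ROBO1 (-1.20, SE 0.12, FDR 5.55e-14) and one of the ephrin receptor gene EPHA4 (-0.88, SE 0.09, FDR 1.68e-13). Glutamate and GABA receptors had 44 lower (2.69%) and 9 higher (0.551%) of 1634 sites. In intron 2 of GRID1, a delta glutamate receptor, the site at chr10:86319207-86320367 had 2.88 to 3.7 CPM against 7.2 to 8.76, with differences from -1.22 to -1.44 in the 4 pairs (log2 -1.33, SE 0.10, FDR 1.17e-19). Growth factor receptor kinases had 27 lower (4.35%) and 6 higher (0.968%) of 620 sites. An intron 1 site of IGF1R was lower (-1.27, SE 0.10, FDR 4.23e-19), as was an intron 4 site of KIT (-1.02, SE 0.09, FDR 8.17e-15), both in all 4 pairs.

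**Figure D5:**
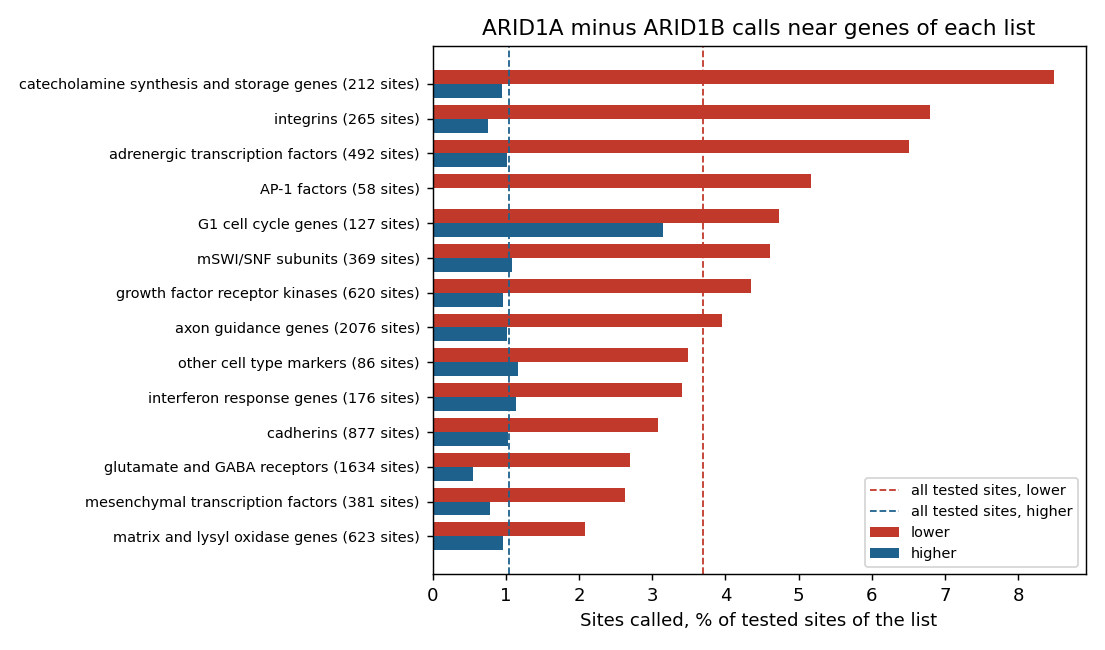
Percent of the tested sites nearest to the genes of each list that were lower or higher after ARID1A than after ARID1B silencing, with dashed lines at the share over all tested sites. Catecholamine genes, integrins and adrenergic transcription factors had the highest shares of lower sites, at 8.49%, 6.79% and 6.50% against 3.69%. Shares were not matched for the CPM of the sites.

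G1 cell cycle genes had 6 lower (4.72%) and 4 higher (3.15%) of 127 sites. The CDK6 intron site (-0.63, SE 0.08, FDR 8.56e-09) had 4.36 to 5.3 CPM with shARID1A.2 and 8.52 to 10.3 with shARID1A.4, and a site near RBL2, a pocket protein gene, had -1.13 (SE 0.15, FDR 1.12e-08). Both calls ended without shARID1A.2, at -0.13 (FDR 0.593) for CDK6 and -0.62 (FDR 0.0204) for RBL2. Interferon response genes, a sign of a response to double-stranded RNA, had 6 lower (3.41%) and 2 higher (1.14%) of 176 sites, with a site near TLR3 at -0.93 (SE 0.11, FDR 3.13e-10). TLE3, a Groucho-family corepressor picked after its values were seen, had 13 of 36 sites lower and 6 lower in all 4 pairs, among them chr15:70216907-70218044 (1.38 to 2.63 against 2.81 to 6.2 CPM, log2 -1.22, SE 0.13, FDR 2.22e-12).

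Subunit genes lay near the background. Sites near mSWI/SNF subunit genes were lower at 17 (4.61%) and higher at 4 (1.08%) of 369, and none was called in all 4 pairs. The promoter site of ARID1A (chr1:26695337-26696256) had 6.9 to 10.5 CPM in ARID1A libraries and 6.72 to 10.3 in ARID1B libraries (log2 0.05, SE 0.09, FDR 0.842). The site nearest the ARID1B start (chr6:156776532-156780619) had 42.3 to 53.6 against 40.3 to 49.7 CPM (log2 0.11, SE 0.06, FDR 0.345). An shRNA acts on the transcript, so neither value checks the labels. A distal site at chr6:156585723-156586315, 191827 bases from ARID1B, had 5 to 6.62 CPM with shARID1B.3 and 0.809 to 1.36 in the other 9 libraries of the contrast. Its log2 difference of -1.31 (SE 0.16, FDR 1.02e-09) was thus set by 1 shRNA, and without shARID1B.3 it was -0.15 (FDR 0.786). A site near BCL11A was higher (0.33, SE 0.06, FDR 2.16e-05) and was called in 2 of the 4 pairs. Its call ended without shARID1B.3 (0.12, FDR 0.404) and without shARID1A.2 (0.23, FDR 0.0471). Mean CPM there was 32.3 in ARID1A, 25.9 in ARID1B and 32.0 in Control libraries.

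Libraries held 16140029 to 44472230 reads in sites, the deepest in shARID1B.3. Of 7 adrenergic markers, 4 had a site annotated as a promoter (PHOX2A, HAND2, DBH and TH), at a median of 9.04 CPM per kb against 7.42 for all promoters. DBH (3.87) and TH (3.38) lay below that level. The adrenergic promoter sites summed to 76.5 to 90.4 CPM in ARID1A libraries and 86.8 to 112.4 in ARID1B libraries. Of 15 markers of other cell types, 12 had none, and MBP, MYH6 and ACTA1 had 1.30 to 1.77 CPM per kb, with a sum of 4.79 to 5.75 CPM in ARID1A and 4.41 to 6.43 in ARID1B libraries. Of 86 sites near those genes, 3 were lower (3.49%) and 1 higher (1.16%), close to the 3.69% and 1.05% of all tested sites. The site with the smallest p was near CD3E (-0.90, SE 0.10, FDR 6.68e-11). It had 10.2 to 14.6 CPM with shARID1B.3 and 3.25 to 6.55 in the other 9 libraries of the contrast, and without shARID1B.3 the difference was -0.27 (FDR 0.24). The log2 difference itself differed between the pairs shARID1A.2 minus shARID1B.2 and shARID1A.4 minus shARID1B.3 at 14536 sites (4.07%).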

How the data were processed

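ATAC-seq counts of SK-N-BE(2) cells were analysed. The authors deposited raw read counts per library over 367900 consensus sites, with GRCh38 coordinates, a HOMER annotation and their own DESeq2 comparisons with Control, which were not used. A further 36 columns of normalised values per sample were not used. Aligner and peak caller: not given in the sources used here. Counts were joined by site. All 21 libraries entered 1 edgeR (4.0.16, R 4.3.3) quasi-likelihood model with a term per group, TMM scaling, filterByExpr (minimum count 10, 10871 sites removed) and Benjamini-Hochberg adjustment, and FDR under 0.01 was a call. The contrast was the mean of the ARID1A groups minus the mean of the ARID1B groups. SE is the size of the log2 difference divided by the square root of F. A shift common to most sites is removed by TMM. DESeq2 (1.42.0) was an alternative. Libraries are triplicates per the labels, and p-values measure the spread between them. Every replicate pair differed by more than counting noise.

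The comparison, lists, motifs and rules were chosen with earlier results of these data known. Named sites were the 8 largest falls and 8 largest rises among called sites averaging 1 CPM or more, without overlap between the genes' libraries, 1 per nearest gene, then the sites of smallest p of 2 genes from each of 14 lists, and the sites nearest the starts of ARID1A and ARID1B. Gene names mark proximity and not regulation. Some named sites and 1 sequence are not reported here.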

Additional observations from a re-analysis of the deposited data

Results flagged for a closer look

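The difference between ARID1A and ARID1B silencing depended on the shRNAs used. The log2 difference of shARID1A.2 minus shARID1B.2 departed from that of shARID1A.4 minus shARID1B.3 at 14536 sites (edgeR, FDR under 0.01). The values below are the first difference minus the second, on the log2 scale, at the named sites that passed this test. Among the largest falls it was -1.34 near LOC102724373. Among the largest rises it was -1.38 near RP11-614F17.2, -1.47 near CCDC102B, -1.77 near SAMSN1-AS1, 1.502 near LRRC27, -2.37 near BBOX1 and -1.92 at the intergenic site on chromosome 20. Among the list genes it was -1.30 near TWIST1, -1.59 near FOSB, -1.04 at ITGB5, -1.28 at FBN1, -1.02 at IGF1R, -1.47 at CDK6, 2.37 at the distal ARID1B site and 0.79 near CD3E. At the RBFOX1 intron site with the PHOX2 letters, nearest to LOC440337, it was -1.32. Groups of 3 libraries are too small for a test of single outlying libraries, and none was made.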

How the results depend on the processing

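Under the alternatives run, no called site among the 56 named turned its direction. The setting that ended the calls was the sum of libraries per shRNA, with 0 sites called, 0 lower and 0 higher in the contrast of the genes; its construction leaves 2 samples a gene. Leaving out shARID1A.2 gave 7573 lower sites, and leaving out shARID1B.2 gave 6116 higher sites. At an FDR under 0.05, the genes differed at 26332 sites, 7409 of them higher, the 4 pairs in the order of the report at 29577, 28609, 28240 and 23726, and the difference between pairs at 24914. With a log2 difference of at least 1, the counts were 2359 (2070 lower, 289 higher) for the genes, 6496, 7842, 5421 and 5368 for the pairs and 9500 for the difference between pairs. Without single libraries, the contrast of the genes called 13743 to 15837 sites, 10675 to 12816 lower and 2811 to 4211 higher, the pairs 12843 to 18101, 13800 to 18950, 9973 to 16634 and 10217 to 15352, and the difference between pairs 11443 to 13048. The count of shARID1A.4 minus shARID1B.2 moved most, to 9973 without shARID1A.4 replicate 1, 10399 without its replicate 2 and 10453 without shARID1B.2 replicate 3. DESeq2 gave 10197 lower and 2909 higher sites, and scaling on promoter sites 16051 and 2670. Same-numbered libraries of different groups had correlations of their deviations from -0.084 to 0.067, and libraries of unlike number from -0.093 to 0.088. The median tested site had 1.02 CPM, where counting noise is large. These correlations thus cannot tell whether the numbers pair the samples. A replicate block gave 18250 sites, 13945 lower and 4305 higher. At named sites, leaving out an shRNA ended 15 calls, given beside the sites in the report where they are named. Low counts limit the sites under 1 CPM most.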
